A study of Mus musculus with 3 samples.

Results

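The genes described here are those of the G1 cyclins, their cyclin-dependent kinases (CDKs) and the retinoblastoma family, measured in mouse LT-HSCs, the long-term stem cells of the blood, after total body irradiation (TBI). They are the D cyclin genes Ccnd1, Ccnd2 and Ccnd3, the E cyclin genes Ccne1 and Ccne2, the kinase genes Cdk2, Cdk4 and Cdk6, and the retinoblastoma genes Rb1 and Rbl2. These 10 genes were chosen by symbol from the 23185 named genes of the array, and each was measured by 1 probe set. The cells were isolated from bone marrow of female C57Bl/6 mice aged 8-10 weeks. The mice were left non-irradiated or received 8 Gy TBI at CDR, an abbreviation that the labels leave unexplained and that is read here as conventional dose rate, or as FLASH, an ultra-high dose rate. The labels give 15 days after TBI for all 3 samples, the non-irradiated one included, which is read here as a control taken at the same time. The labels name no engineered allele or other agent for any group, and the sources used here do not say how many mice gave each RNA sample. Each group had 1 Affymetrix array, so no value below has a replicate error and no test between groups was possible. "Higher" and "lower" describe these 3 arrays. Both irradiated arrays are compared with the same non-irradiated array, so their differences from it are not independent of each other.

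In a dividing mammalian cell, D cyclins are made in response to growth signals and pair with CDK4 or CDK6. These kinases start to phosphorylate the retinoblastoma protein (the product of Rb1) and its relative p130 (Rbl2), which hold E2F transcription factors in check. Freed E2F factors switch on genes for DNA synthesis and the E cyclins, and cyclin E with CDK2 then carries the cell into S phase. Most LT-HSCs rest outside the cycle, and low CDK6 protein and active retinoblastoma family members are known features of that resting state.

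The deposited values are levels on a log2 scale, and a log2 difference of 1 is a 2-fold difference. A gene counted as detected between 2 arrays if its brighter value exceeded the 95th percentile of 1364 olfactory, vomeronasal and trace amine receptors on that array, genes assumed to be silent in blood. That detection level was 4.15 without irradiation, 4.16 after CDR and 4.22 after FLASH. All 10 G1 genes lay above it on every array, the lowest being Ccne1 on the non-irradiated array at 2.57 above the highest of these levels. Of the fixed LT-HSC markers, 10 were measured and all of them, including Procr, Slamf1 and Kit, were above the detection level on every array. So were all 9 measured erythroid, 5 megakaryocyte and 10 mitotic markers. Without irradiation, 7 of 8 granulocyte and 7 of 8 monocyte and dendritic markers were above it too. A value above the detection level therefore does not by itself single out LT-HSCs. Mean levels without irradiation were 8.61 for the mitotic, 8.89 for the granulocyte and 6.94 for the LT-HSC markers. The non-irradiated values are therefore not read here as those of resting LT-HSCs alone. Of 7 measured B cell markers, 4 were above it on each array, among them Cd79b, a subunit of the B cell receptor, at 9.04 without irradiation, 8.58 after CDR and 8.05 after FLASH, while Ms4a1 was below it on each. Of 6 T cell markers, 3 were above it without irradiation and 2 on each irradiated array. Of these, Cd8a and Cd5 were above it on every array, at 4.23 to 4.37, and Cd4 only without irradiation, while the T cell receptor complex genes Cd3d, Cd3e and Cd3g were below it throughout. An exact tie between arrays is common in this table, with the same value on all 3 arrays for 39.8% of named genes, and 13.2% of genes whose highest level lay from 8 to 10. A tie to every deposited digit is not taken here as evidence that expression was unchanged.

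Promoter sequence was at hand for 6 of the 10 genes, as 7 windows of 300 bases from RefSeq (build GRCm38.p6) that run from 250 bases before the annotated start to 50 bases after it. Ccnd1, Ccnd2, Ccne2 and Rb1 had no window in that table. The 250 bases before the start are shown for 3 genes, 5′ to 3′ on the strand of the gene. Ccne1 had the largest difference of the family, Cdk2 encodes its partner kinase and read the same on all arrays, and Rbl2 was the only family member that read lower after both CDR and FLASH in the deposited values. Capitals mark matches, on either strand, to the E2F motif (TTTCCCGC, TTTCGCGC, TTTGCCGC or TTTGGCGC) or to the last 6 letters of any of these forms.
Ccne1, chr7:38107491-38107740, - strand: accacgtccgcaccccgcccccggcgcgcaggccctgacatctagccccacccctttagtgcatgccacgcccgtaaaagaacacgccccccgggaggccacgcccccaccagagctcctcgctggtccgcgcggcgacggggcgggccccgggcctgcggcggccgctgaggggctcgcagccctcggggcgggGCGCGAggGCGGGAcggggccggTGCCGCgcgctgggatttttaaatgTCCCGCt
Cdk2, chr10:128705052-128705301, - strand: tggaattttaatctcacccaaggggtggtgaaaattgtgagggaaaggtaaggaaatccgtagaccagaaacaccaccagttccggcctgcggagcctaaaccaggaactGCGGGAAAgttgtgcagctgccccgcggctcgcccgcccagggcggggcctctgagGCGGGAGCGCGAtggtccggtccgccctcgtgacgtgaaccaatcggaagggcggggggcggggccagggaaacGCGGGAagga
Rbl2, chr8:91069807-91070056, + strand: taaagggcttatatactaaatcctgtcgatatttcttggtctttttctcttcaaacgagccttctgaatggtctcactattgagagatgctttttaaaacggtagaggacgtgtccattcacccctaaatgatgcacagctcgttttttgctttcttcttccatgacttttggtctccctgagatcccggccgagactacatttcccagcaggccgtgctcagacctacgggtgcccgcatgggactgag

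The Ccne1 window held 4 matches to the 6-letter strings, the first base of each lying 55, 47, 32 and 7 bases before the start, and no match to an 8-letter form. It also held 4 copies of the GC box GGGCGG, 1 of which overlaps the E2F string 47 bases before the start. The Cdk2 window held 1 match to an 8-letter form, GCGGGAAA on the opposite strand, beginning 140 bases before the start, and 5 to the 6-letter strings, 1 of them inside the longer match and 1 after the start. The Rbl2 window held no match before the start and 1 at base 12 after it. Of the 7 windows of the family, 1 held an 8-letter form, 4 a 6-letter string and 6 a GC box. The window of Cdk6, a gene not higher on either irradiated array in the deposited values, held 2 matches to the 6-letter strings. The genes shown were picked partly by their array values, and no link between matches and differences was tested. Of all 32851 promoter windows in the table, 2.26% held an 8-letter form, 36.3% a 6-letter string and 35.7% a GC box. G and C made up 76.0% of the Ccne1 window, 64.7% of the Cdk2 window and 50.7% of the Rbl2 window. The median over all windows was 52.7%. The 6-letter strings are mostly G and C, and the background shares are not matched for this content. A match is a string of letters and not a measured binding site.

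D cyclin genes encode the first cyclins made in G1, and 1 of the 3 differed by more than 1.5-fold from the non-irradiated array. Ccnd1 (Entrez gene 12443), cyclin D1, read 7.50 without irradiation, 8.21 after CDR and 8.27 after FLASH. Both irradiated arrays were high and close together, with log2 differences of 0.71 (1.63-fold) and 0.76 (1.70-fold) from the non-irradiated array. Among detected genes, 5.99% had a larger absolute difference than Ccnd1 after CDR and 5.12% after FLASH. Ccnd2 (12444), cyclin D2, a D cyclin of blood progenitors, read 9.41, 9.52 and 9.49 in the same order. Its differences of 0.11 and 0.09 were small, and 44.9% and 49.7% of detected genes differed by more. Ccnd3 (12445), cyclin D3, which acts in red cell and lymphocyte precursors, held the value 8.41 on all 3 arrays, an exact tie. Ccnd1 and Ccnd2 therefore differed by unequal amounts on these arrays, and the tie of Ccnd3 is not read as unchanged expression.

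**Figure D1:**
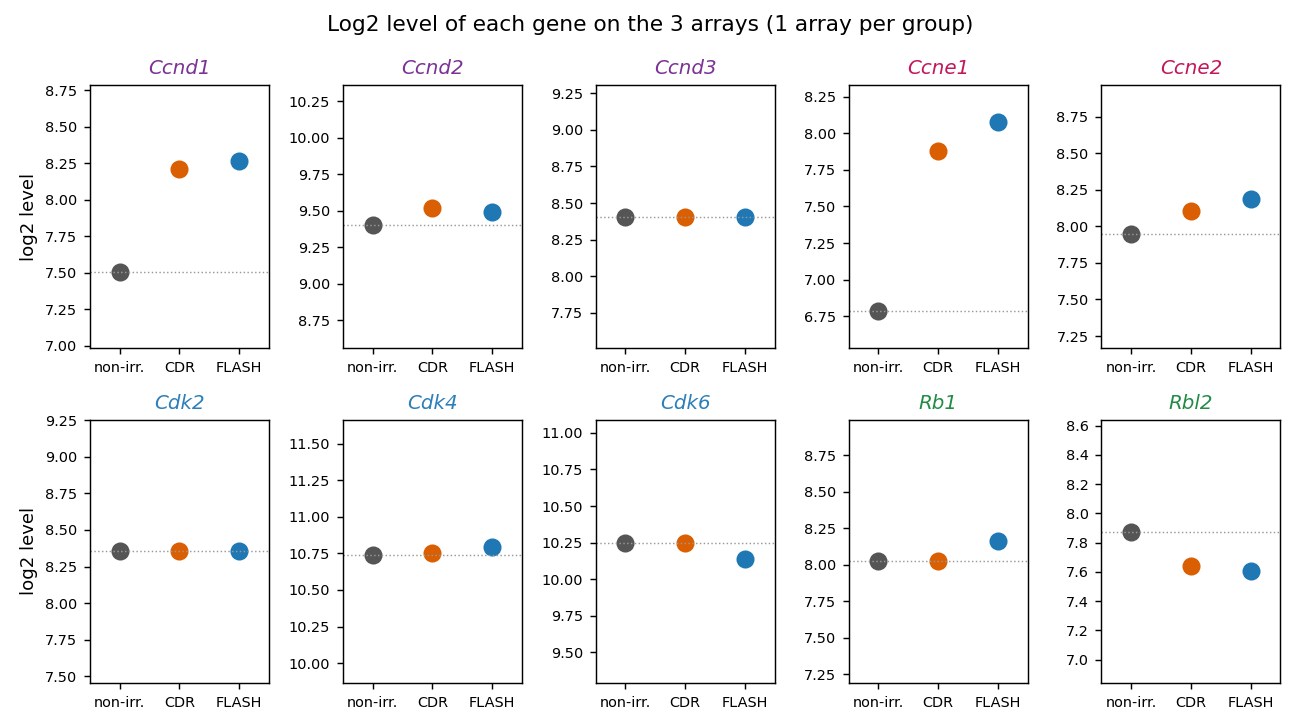
Log2 level (vertical axis) of each of the 10 genes on the non-irradiated, CDR and FLASH arrays, 1 point per array and no error bars because each group had 1 array. Every panel spans the same range of 1.8 log2 units, and the dotted line marks the non-irradiated value; Ccne1 and Ccnd1 lie clearly above it on both irradiated arrays, Rbl2 lies below it, and Ccnd3 and Cdk2 are tied.

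E cyclin genes were higher on both irradiated arrays, Ccne1 by far more than Ccne2. Ccne1 (Entrez gene 12447), cyclin E1, which activates CDK2 at the entry to S phase, read 6.79 without irradiation, 7.88 after CDR and 8.08 after FLASH. The non-irradiated array was low, and the log2 differences were 1.10 (2.14-fold) for CDR and 1.29 (2.45-fold) for FLASH. Among detected genes, 2.47% had a larger absolute difference than Ccne1 after CDR and 1.68% after FLASH. In the upward direction alone, 78 of 13448 detected genes had a larger difference on the CDR array, and 94 of 13288 on the FLASH array. The second E cyclin, Ccne2 (12448), read 7.94, 8.11 and 8.19, giving differences of 0.16 (1.12-fold) and 0.25 (1.19-fold). On the CDR array 37.4% of detected genes differed by more than Ccne2, and on the FLASH array 28.0%. With an offset of 32 added on the linear scale, which shrinks differences of dimmer genes, the Ccne1 values became 0.91 and 1.08, so that the CDR difference lay under 2-fold.

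The kinase genes differed little in the deposited values, in part through exact ties. Cdk4 (Entrez gene 12567), a partner of the D cyclins, read 10.74 without irradiation, 10.75 after CDR and 10.79 after FLASH. Its difference on the CDR array, 0.02, turned to -0.0042 under another scaling, while the FLASH difference of 0.05 stayed positive in every scaling tried. Cdk6 (12571), the other D cyclin partner, whose protein is low in resting stem cells, read 10.25 on both the non-irradiated and the CDR array, an exact tie, and 10.14 on the FLASH array. The FLASH array was thus the low one, by -0.11, and 45.7% of detected genes differed by more from the non-irradiated array. Cdk2 (12566), the cyclin E partner, held 8.35 on all 3 arrays, an exact tie that does not show unchanged expression.

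The retinoblastoma genes pointed in different directions on the FLASH array. Rb1 (Entrez gene 19645), the founding member of the family, read 8.02 without irradiation, 8.03 after CDR and 8.16 after FLASH. Its CDR difference of 0.0021 had no stable sign across scalings, and its FLASH difference was 0.14 (1.10-fold). Rbl2 (19651) encodes p130, which binds E2F4 in resting cells and forms part of the DREAM complex that represses cell cycle genes. It read 7.87, 7.64 and 7.61, lower on both irradiated arrays by -0.23 (1.17-fold) and -0.27 (1.20-fold). Of detected genes, 28.8% and 26.1% differed by more than Rbl2, so its distance from the non-irradiated array was not among the larger ones.

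Set against the non-irradiated array, 1 of the 10 genes, Ccne1, passed 2-fold upward on the CDR array and 0 passed it downward. Over all 13448 detected genes, 0.766% passed 2-fold upward and 2.36% downward. With FLASH the count was again 1 upward, Ccne1, and 0 downward, where 1.17% and 1.75% of 13288 detected genes passed. At a threshold of 1.5-fold, 2 genes were higher on each irradiated array, Ccne1 and Ccnd1, and 0 were lower. The background at that threshold was 3.2% higher and 5.38% lower for CDR, and 3.59% higher and 5.3% lower for FLASH. With so few members a count of 1 or 2 is a description of named genes, not of the family.

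The median difference over the 10 genes was 0.0094 after CDR and 0.071 after FLASH, while the median over all detected genes was 0.00 in both. By any amount, 6 genes were higher, 1 lower and 3 tied on the CDR array, where 34.7% of detected genes were higher, 30.4% lower and 34.9% tied. On the FLASH array 6 were higher, 2 lower and 2 tied, against 33.8%, 33% and 33.2%. These splits rest on very small differences, and the shares of all detected genes are not matched to the 10 genes in level. Across the scalings tried, the number of higher genes ran from 4 to 9 on the CDR array and from 6 to 8 on the FLASH array. Ccnd1, Ccnd2, Ccne1 and Ccne2 stayed higher and Rbl2 lower on both arrays in all of them.

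**Figure D2:**
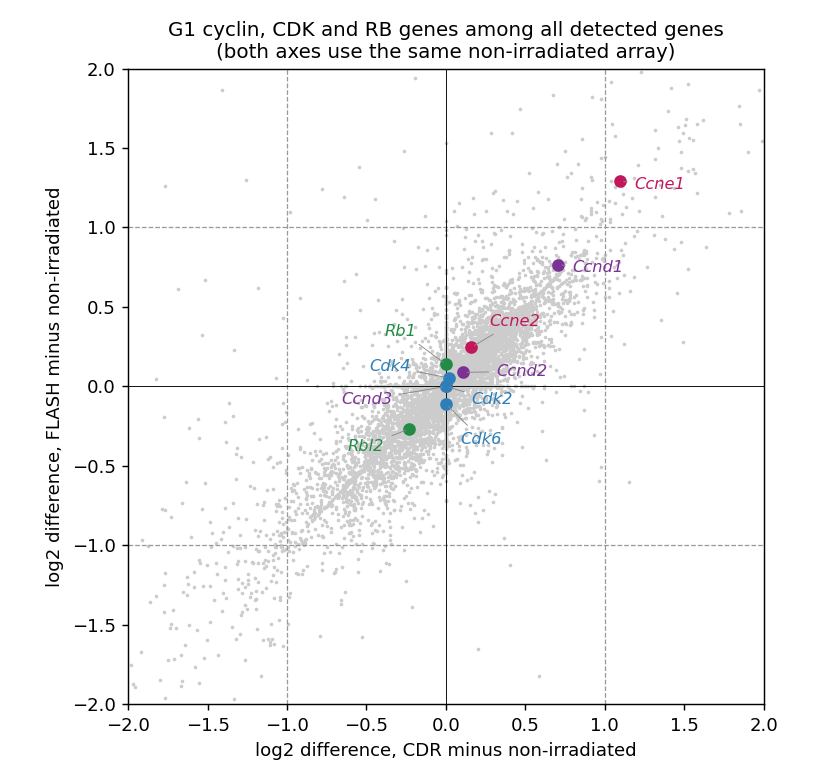
Log2 difference from the non-irradiated array for CDR (horizontal axis) and for FLASH (vertical axis) for the 10 genes (D cyclins purple, E cyclins red, kinases blue, retinoblastoma genes green) over all detected genes in grey (those beyond 2 on either axis are not drawn). Dashed lines mark 2-fold; Ccne1 at 1.10 and 1.29 is the only labelled gene beyond them on both axes, Ccnd1 follows at 0.71 and 0.76, and the rest lie near the centre. Both axes use the same non-irradiated array.

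The comparison of FLASH with CDR at the same dose bears on the dose rate. Of the 10 genes, 0 passed 1.5-fold in either direction and 0 passed 2-fold. Among 13184 detected genes, 1.85% passed 1.5-fold toward FLASH and 0.781% toward CDR, and 0.85% and 0.144% passed 2-fold, so a count of 0 of 10 is near the background. The largest difference was that of Ccne1, 0.20 (1.14-fold) higher on the FLASH array, and 15.6% of detected genes differed by more. Rb1 followed at 0.14 higher and Cdk6 at -0.11, with 23.2% and 27.4% of detected genes differing by more. Ccne2 was at 0.09 and Ccnd1 at 0.06. Cdk4 was at 0.04, Ccnd2 at -0.02 and Rbl2 at -0.04. Ccnd3 and Cdk2 were tied. In all, 5 of the 10 were higher with FLASH, 3 lower and 2 tied, where 25.6% of detected genes were higher, 31.9% lower and 42.4% tied. The median absolute difference of the 10 genes was 0.047, against 0.023 over all detected genes. Exact ties lower the second median, and they are more common among dim genes. Of named genes with a highest level from 4 to 6, 44.3% were tied on all 3 arrays. From 8 to 10, where 7 of the 10 genes lie, it was 13.2%, so these medians are not matched for level. With 1 array per group, differences as small as those of the 10 genes cannot be told from the spread between arrays, which was not measured. The values do not show that FLASH and CDR act alike.

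**Figure D3:**
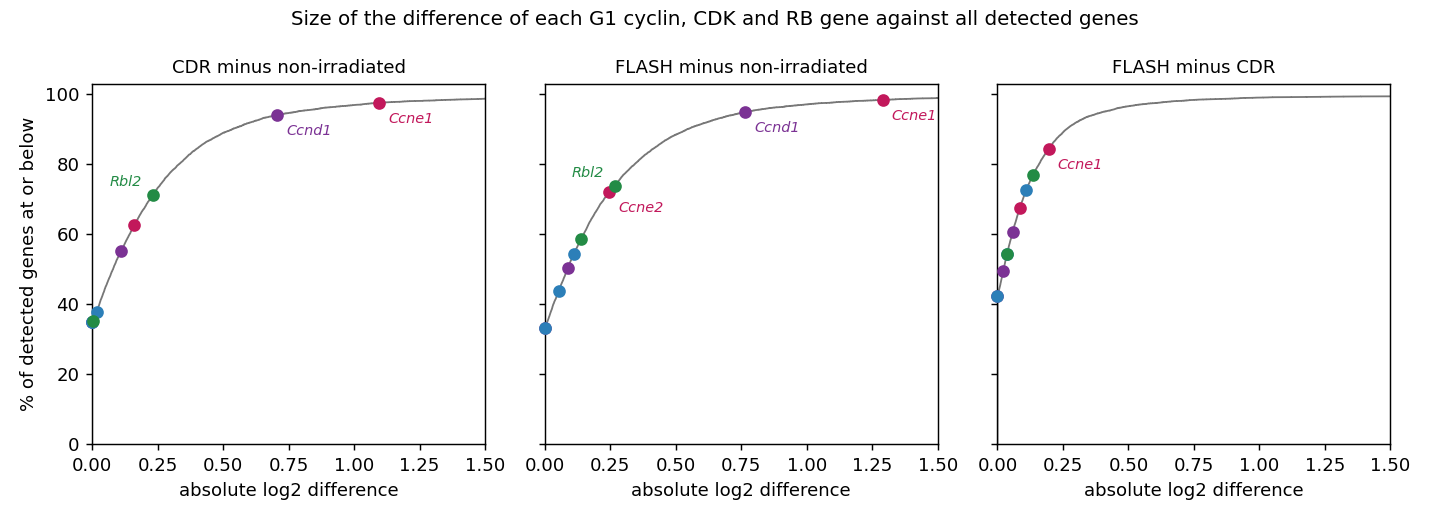
Cumulative share of detected genes (vertical axis, percent) by absolute log2 difference (horizontal axis) in each of the 3 comparisons, with the 10 genes as points (D cyclins purple, E cyclins red, kinases blue, retinoblastoma genes green). Ccne1 and Ccnd1 sit on the upper shoulder against the non-irradiated array, and in FLASH against CDR every gene lies at or below 0.20; the curves start above 0 because of exact ties.

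Genes that act on or with this module were taken from lists fixed for the pathway, and named by a rule on the size of their difference. Among CDK inhibitors, the proteins that block these kinases, 0 of 7 detected genes passed 1.5-fold upward with CDR and 1 passed it downward, and with FLASH 0 of 6 passed in either direction. Counts this small are near the shares of all detected genes that passed, 3.2% higher and 5.38% lower for CDR and 3.59% and 5.3% for FLASH, and the same shares stand behind each 1.5-fold count of the lists that follow. The gene was Cdkn1b, which encodes p27 and restrains cyclin E with CDK2. It read 8.51 without irradiation, 7.82 after CDR and 8.16 after FLASH. The CDR array was the low one at -0.69, with FLASH between the others at -0.35. The list median was -0.17 after CDR and -0.19 after FLASH.

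E2F factors and their DP partners, the transcription factors held by the retinoblastoma family, had 10 detected members and a median of 0.16 after CDR and 0.14 after FLASH. In the deposited values 0 were 1.5-fold apart, though Tfdp2 passed that threshold after FLASH under quantile normalisation. E2f8, an atypical repressive E2F that is itself an E2F target, was at 0.51 and 0.50. Tfdp2, which encodes the DP partner DP2, was the lowest of the list at -0.43 and -0.58. Of the 8 genes for p107, DREAM or MuvB subunits and the factors that join them, 1 passed 1.5-fold upward with both CDR and FLASH and 0 passed it downward. This was Mybl2, which encodes B-MYB, the partner of MuvB when it activates mitotic genes. Mybl2 read 7.64, 8.59 and 8.28, with differences of 0.95 after CDR and 0.64 after FLASH, and with an offset of 32 added before log2 the FLASH difference was 0.57, under 1.5-fold.

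Among 19 measured E2F target genes of the G1/S transition, 16 were higher, 0 lower and 3 tied on the CDR array, and 14, 0 and 5 on the FLASH array. Of all detected genes, 34.7% were higher, 30.4% lower and 34.9% tied with CDR, and 33.8%, 33% and 33.2% with FLASH. These shares are not matched for level, and ties are more common among dimmer genes. The medians of the 19 genes were 0.14 and 0.09, and across scalings the number higher ran from 14 to 19 and the number lower from 0 to 5 on each array, the 5 under cyclic loess. In the deposited values 1 of them, Rrm2, the inducible subunit of ribonucleotide reductase, was at least 1.5-fold apart, and a further gene passed after FLASH under median centring. It read 8.48, 9.59 and 9.69, with differences of 1.12 and 1.21 that resemble those of Ccne1 in size. Later cyclins and CDK1 had medians of 0.33 and 0.39 over 5 genes, of which 1 passed 1.5-fold upward after CDR and 2 after FLASH, with 0 downward. The CDR count was 0 with the offset, where Ccnf was at 0.53, and 2 under median centring, where Ccna2 was at 0.59. Ccnf, cyclin F, was at 0.65 on CDR and 0.79 on FLASH. Ccna2, cyclin A2, which takes over CDK2 from the E cyclins in S phase, was at 0.53 and 0.69.

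CDK activating and inhibitory enzymes had 8 detected members, 0 of them 1.5-fold apart on either irradiated array. Cdc25c, a phosphatase that activates CDK1, was at 0.34 and 0.32. Mnat1, a subunit of the CDK-activating kinase, was at -0.22 and -0.10. In the list for the turnover of cyclins D and E, 1 of 12 genes passed 1.5-fold upward and 0 downward on each irradiated array. That gene was Cks2, a small CDK-binding protein, at 0.61 on both arrays, which were exactly tied. Cks2 is listed beside Cks1b, which was at 0.009 and 0.007, and its own role in this turnover was not examined. Cks2 was under 1.5-fold with the offset on both arrays, at 0.55, and under quantile normalisation on the CDR array. Of 2 further genes, chosen after their values were seen, the ubiquitin ligase gene Fbxw7, which marks cyclin E for destruction, was tied on all 3 arrays at 6.23, and Skp2, which marks p27, was at 0.42 and 0.43.

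**Figure D4:**
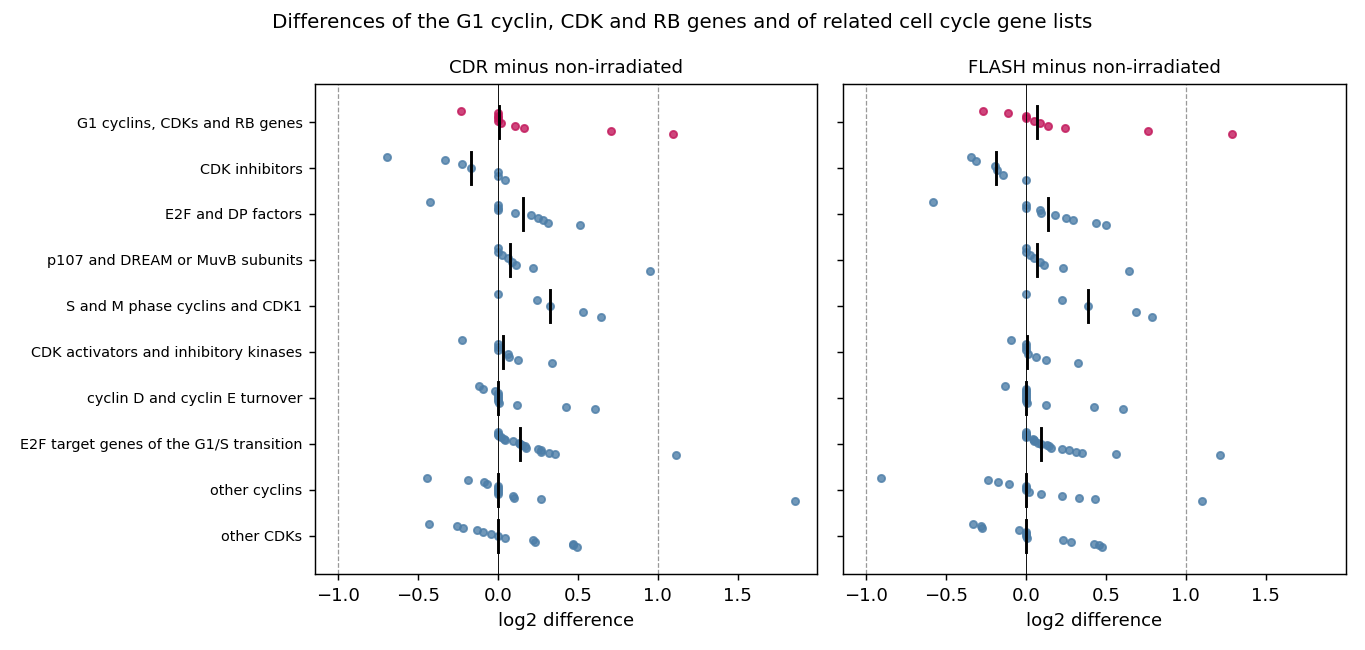
Log2 difference from the non-irradiated array (horizontal axis) of each detected gene in the G1 family (red) and in the related lists (blue), for CDR on the left and FLASH on the right. Black bars are list medians and dashed lines mark 2-fold; Ccne1, Rrm2 and, among other cyclins, Ccnyl1 are the points beyond 1 on both sides, while the inhibitor list has its medians left of 0, at -0.17 and -0.19.

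The genes whose pattern lay closest to that of Ccne1 and Ccnd1 were sought over the 2 differences from the non-irradiated array, among 12032 other detected genes. Likeness was the Euclidean distance in log2 units, over only 3 arrays. Nearest to Ccne1 were Arhgap19 (distance 0.034), Spire1 (0.048) and Add2 (0.055), and 5 genes lay within 0.1 of it. Nearest to Ccnd1 were Gemin4 (0.013), Klhl23 (0.027) and Kif20b (0.029), and 39 genes lay within 0.1.

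Markers of other cells and of dividing cells differed between the same arrays. For the counts below, 34.7% of all detected genes were higher and 30.4% lower on the CDR array. On the FLASH array these shares were 33.8% and 33%. They are not matched to the marker lists in level. All 9 measured erythroid markers were higher on both irradiated arrays, with mean log2 levels of 7.19 without irradiation, 8.17 after CDR and 8.39 after FLASH. Klf1, a defining red cell transcription factor, read 6.15, 7.13 and 7.59. All 10 mitotic markers were higher on both, with mean levels of 8.61, 9.15 and 9.22. The LT-HSC markers had mean levels of 6.94, 6.31 and 6.45, 9 of 10 being lower on the CDR array and 8 of 10 on the FLASH array. Monocyte and dendritic markers had means of 5.75, 6.18 and 6.64 and differed in both directions. Of those detected, 5 of 7 were higher and 1 lower with CDR, and 5 of 8 higher and 2 lower with FLASH, with log2 differences from 2.36 for H2-Eb1 to -0.78 for Csf1r on the FLASH array. Granulocyte markers had means of 8.89, 8.20 and 8.37, with 3 of 7 detected higher (Elane, Mpo and Prtn3) and 4 lower on each irradiated array, where S100a9 had log2 differences of -2.25 with CDR and -1.31 with FLASH. All 5 megakaryocyte markers were lower on both, with means of 7.71, 7.21 and 7.23. B cell markers stood at 4.76, 4.61 and 4.57 and T cell markers at 3.78, 3.67 and 3.71. All list means here cover every measured marker, detected or not. The T cell means themselves lie below the detection level, so the small differences of these last lists are not interpreted. The part of these cells in the Ccne1 and Ccnd1 differences was not tested. In bulk RNA, fewer cells of a type and less RNA per cell cannot be told apart.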

How the data were processed

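Gene expression was measured on 3 Affymetrix arrays, 1 each for LT-HSCs of non-irradiated, CDR and FLASH mice (10000 cells per sample per the labels). The deposited table holds log2 levels for 25206 probe sets. The submitters' processing notes name Partek without a version. How the authors corrected background, summarised probes and normalised is not given in the sources used here, and log2 was read from the range of values. The platform's probe table named 23185 probe sets with 1 symbol and 0 with several, and left 2021 unnamed. Differences are of deposited log2 values. Counts use detected genes only. The members and gene lists were chosen with earlier results of these data known. Named pathway genes are those at least 1.5-fold apart in any comparison, or else the 2 with the largest difference per list. The 3 nearest genes were named for each member at least 1.5-fold apart from the non-irradiated array. Alternatives were median centring, quantile and cyclic loess normalisation (limma 3.58.1, R 4.3.3), an offset of 32, raised dim values, other filters and a 1.5-fold threshold. Counting steps were tested on simulated data. Python 3.11.15, pandas 2.3.3 and matplotlib 3.10.9 were used. The 1 array per group limits the precision.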

Additional observations from a re-analysis of the deposited data

How the results depend on the processing

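The count of G1 genes at least 2-fold apart stayed at 1 each with CDR and FLASH under median centring, quantile normalisation and cyclic loess. Raising dim values to the detection level could not change any such count, because every G1 gene lay above that level on every array. The count became 0 on the CDR array with an offset of 32, where Ccne1 fell to 0.91. At a 1.5-fold threshold the count was 2 on each irradiated array, which adds Ccnd1. Between FLASH and CDR it was 0 in every setting. Of 120 values of single members under the 4 scalings, 2 moved by 0.1 or more, both of them Ccne1 with the offset (0.91 and 1.08). Several deposited differences were themselves smaller than 0.1, so this tolerance says little about them. Sign changes were counted only for differences of at least 2-fold, which only Ccne1 had, and 0 were found. Smaller differences did change sign, as on the CDR array for Cdk4 (-0.0042 to 0.0742) and Rb1 (-0.0198 to 0.0595). The CDR median of 0.0094 became -0.0035 under cyclic loess, and the FLASH against CDR median of 0.018 became -0.014 under median centring. Over all genes, 131 were at least 2-fold apart between FLASH and CDR, 85 with the stricter filter, and 44 (0.338%) without antibody and T cell receptor segments, a setting chosen after seeing the data. No paired analysis was possible because each group had 1 array.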

Other observations

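Cyclins and CDKs outside the G1 module had medians of 0.00 in both comparisons with the non-irradiated array. Of 13 detected other cyclins, 1 passed 1.5-fold upward with CDR and 0 downward, against 1 upward and 1 downward with FLASH. Ccnyl1, a cyclin Y relative, read 5.37 without irradiation, 7.22 after CDR and 6.47 after FLASH, so CDR was the high one at 1.86, with FLASH at 1.10. Across the scalings the CDR difference of Ccnyl1 ran from 1.31 to 1.91. Its FLASH difference ran from 0.72, under 2-fold, to 1.16. Ccng2, a cyclin of cells leaving the cycle, read 7.19, 6.75 and 6.29 and was lowest on FLASH, at -0.44 on CDR and -0.91 on FLASH. Of 13 detected other CDKs, 0 were 1.5-fold apart. The kinase of the Mediator complex, Cdk8, was at 0.49 and 0.46, and Cdk9, the kinase of transcription elongation, was at 0.47 on both. Between the irradiated arrays, FLASH minus CDR was -0.75 for Ccnyl1 and -0.46 for Ccng2.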
